A study of Mus musculus with 46 samples.

Results

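The Spata genes (spermatogenesis associated) and Tex genes (testis expressed) were taken as all array probes whose annotated symbol starts with Spata or Tex followed by a digit. There were 63 such probes of 25697 on the array, for 46 genes of 16593 with a symbol: 32 probes for 21 Spata genes and 31 probes for 25 Tex genes. Of the 63 probes, 56 (28 Spata and 28 Tex, for 42 genes) were bright enough to be tested, among 15419 probes in all. All 63 matched a RefSeq entry by gene ID, and none had been renamed. The symbols record where a transcript was found and not a shared ancestry, so the members differ in what they do.

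Testes of male Swiss mice that had drunk water with no acrylamide (control) or with 0.001, 0.01, 0.1, 1 or 10 µg/ml of it were profiled after 1, 6 or 12 months, at 3 to 6, 11 to 12 and 16 to 17 months of age per the labels. Acrylamide is a small reactive compound that forms in starchy food when it is heated. Each of the 18 groups had 3 arrays of 1 testis each, except 2 at 0.1 µg/ml and 1 month, and at 12 months 2 controls, 2 at 0.001, 2 at 0.01, 3 at 0.1, 1 at 1 and 1 at 10 µg/ml. The labels name individual testes, not mice, so the p-values measure the spread between testes.

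Male germ cells pass through meiosis as spermatocytes, become round spermatids, and then elongate, packing the nucleus under an acrosome and building a tail whose midpiece holds the mitochondria. Many testis genes, several members among them, are transcribed late in this sequence and translated during elongation. The testis is a mixture, so in whole tissue fewer cells of a type and less RNA per cell cannot be told apart.

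Values are log2 normalized intensities as the authors deposited them, a difference is a log2 difference with its standard error from the limma fit, and a call is an adjusted p under 0.05 over all 15419 probes tested, two-sided. A probe's level says nothing about another probe's level. The arrays are numbered from 1 to 46 by time and then dose, and a set here means 8 consecutive numbers (6 arrays in set 6), because the labels give no slide. At 6 months the control, 0.001 µg/ml and replicate 1 of 0.01 µg/ml lay in set 3. Set 4 took the rest of 0.01 µg/ml with 0.1 and 1 µg/ml, and the highest dose came in set 5, so at 10 µg/ml dose and set cannot be told apart. At 1 month the control, 0.001 µg/ml and replicates 1 and 2 of 0.01 µg/ml lay in set 1, and the higher doses in set 2, with replicate 3 of 10 µg/ml in set 3. At 12 months control, 0.001 µg/ml and replicate 1 of 0.01 µg/ml lay in set 5 and the rest in set 6. The array of replicate 3 at 0.001 µg/ml and 1 month stood apart: its values correlated with those of the others at 0.844 on average, and no other array was under 0.974. It was kept, and counts of calls that moved by over 1.5 times without it are given beside the result. The share of all probes called without an array, or in another setting, is not given here. A count that moved is thus no result about the members alone. As markers of the tissue, Prm1 of elongating spermatids lay at 13.40 to 14.36 and Insl3 of Leydig cells at 11.82 to 14.13, while the probes of Sycp3 (spermatocytes), Amh (Sertoli cells) and Lcn5 (epididymis) were among those too dim to test. Sox9 of Sertoli cells (7.69 to 8.07) and Adipoq of adipose tissue (9.25 to 10.48) were bright enough to test. So were other markers of the types with a dim probe, 17 spermatocyte, 20 Sertoli cell and 4 epididymis genes. The mean level of these 4 epididymis genes ran from 7.86 to 8.56 in the 6-month controls and from 7.89 to 7.99 at 10 µg/ml.

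After 6 months at 10 µg/ml, 12 of the 56 member probes were lower than in the controls and 1 was higher (3 arrays against 3). Over all probes 8.37% were lower and 9.00% higher, 17.4% in either direction, so the members' share of lower calls was 21.4% and of higher calls 1.79%. The median difference was -0.10 over the members and 0.02 over all probes. The lower members came from both families, 6 Spata and 6 Tex probes. They included sperm head, tail and less studied testis genes and a gene used in many tissues. None of the 5 probes for genes of meiosis, germ cell bridges and transposon control was called. That is too few probes to set apart from the 17.4% over all probes. Without the array that stood apart the count of calls was 24 in place of 13, and the share of all probes called there is not given. All 3 treated arrays lay below all 3 controls for 23 member probes and above them for 8, against 20.8% and 25.1% of all probes.

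The lowest p belonged to Spata33, whose product holds the phosphatase calcineurin at sperm mitochondria in mice. Spata33, on chromosome 8 (probe ILMN_2962386), was at 12.06, 12.07 and 12.08 in the 6-month controls and at 10.75, 10.97 and 10.63 at 10 µg/ml, a difference of -1.29 ± 0.17 (limma adjusted p = 0.00014). The 3 controls were nearly equal and all treated arrays lay below them. Spata3, a testis gene on chromosome 1 (probe ILMN_1221195), was at 12.61, 12.19 and 12.85 in the controls and at 10.95, 11.40 and 11.25 at 10 µg/ml, a difference of -1.35 ± 0.28 (adjusted p = 0.00182). Spata21, which encodes a protein with calcium-binding EF-hands, on chromosome 4, was at 11.07, 10.65 and 11.01 in the controls and at 9.79, 9.59 and 9.87 at 10 µg/ml, a difference of -1.16 ± 0.25 (adjusted p = 0.00247). Both of these also separated the groups fully, although their controls were more spread than those of Spata33. Tex48, a testis gene of chromosome 4, was at 12.48, 12.38 and 12.49 in the controls and at 12.00, 12.00 and 11.79 at 10 µg/ml, a difference of -0.52 ± 0.12 (adjusted p = 0.00447). Its change was the smallest of these 4, and its groups did not overlap either.

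**Figure D1:**
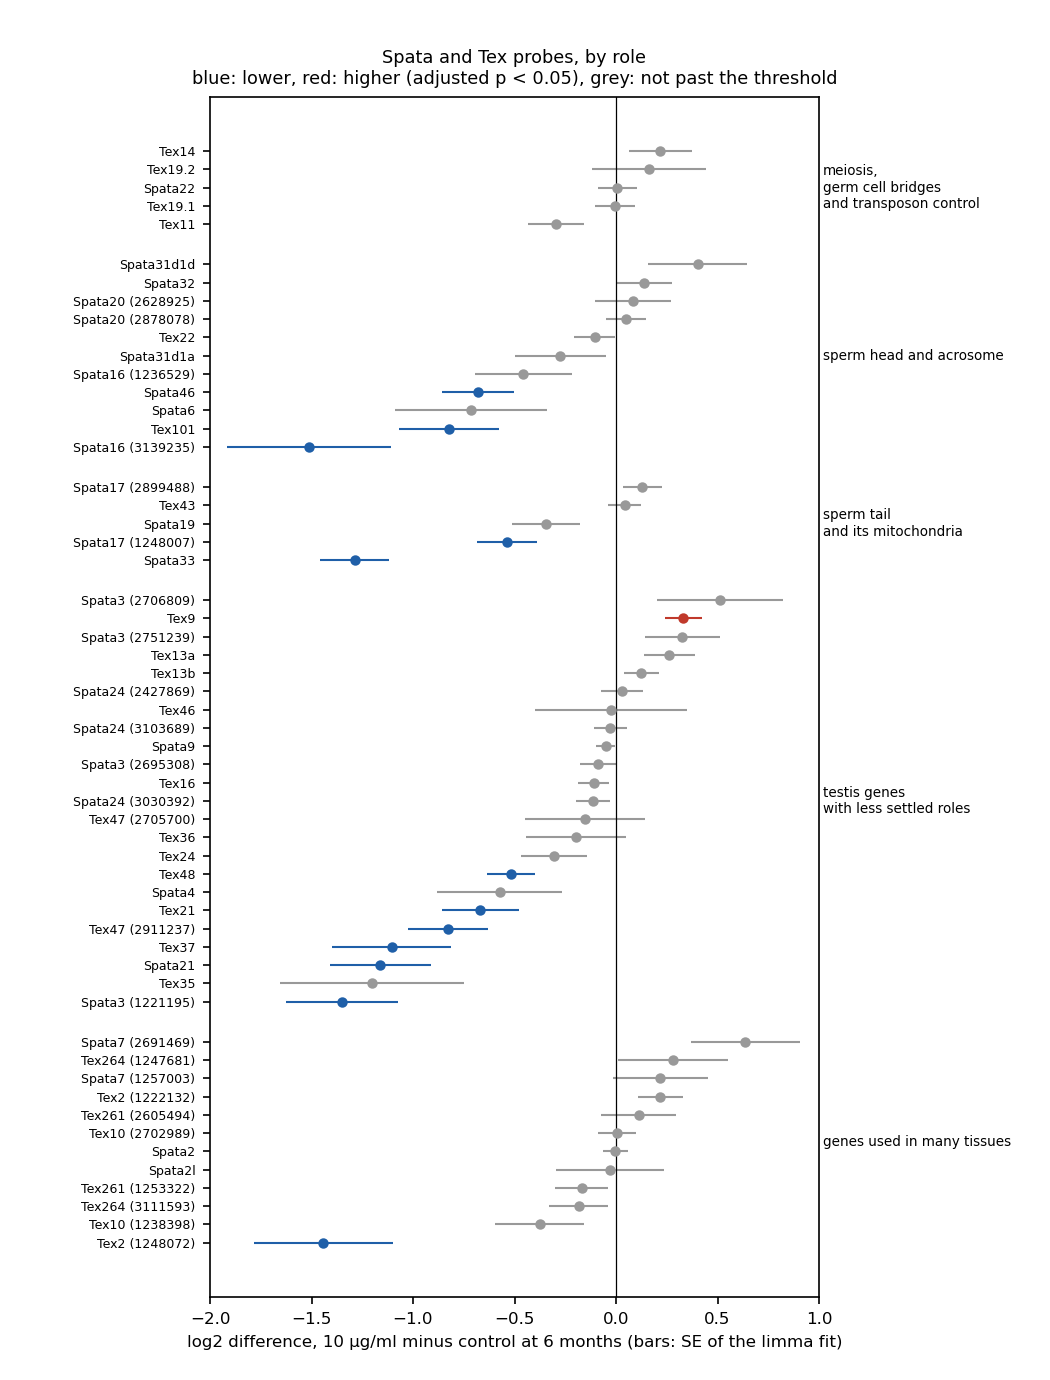
Log2 difference between 10 µg/ml and control at 6 months (x axis) for each of the 56 member probes tested, grouped by role, with bars for its standard error. The 12 blue points lie at -0.52 or lower and the only red point is Tex9 at 0.33. The genes of meiosis, germ cell bridges and transposon control at the top are grey.

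The 3 member probes with the lowest p, of Spata33, Spata3 and Spata21, all fell, while Tex9 rose. The other tested Spata3 probes were not called. The stretches of 250 bases before the start of transcription are shown for these 4 genes. They are given 5′ to 3′ on the gene's strand, from RefSeq (GRCm38.p6): Spata33 at chr8:123212608-123212857 (plus strand), Spata21 at chr4:141088095-141088344 (plus), Spata3 at chr1:86021695-86021944 (plus) and Tex9 at chr9:72491960-72492209 (minus).
Spata33: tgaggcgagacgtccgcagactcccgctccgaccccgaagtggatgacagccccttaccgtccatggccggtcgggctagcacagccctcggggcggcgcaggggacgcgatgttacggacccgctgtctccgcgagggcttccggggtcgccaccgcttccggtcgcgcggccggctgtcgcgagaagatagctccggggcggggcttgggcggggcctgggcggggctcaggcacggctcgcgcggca
Spata21: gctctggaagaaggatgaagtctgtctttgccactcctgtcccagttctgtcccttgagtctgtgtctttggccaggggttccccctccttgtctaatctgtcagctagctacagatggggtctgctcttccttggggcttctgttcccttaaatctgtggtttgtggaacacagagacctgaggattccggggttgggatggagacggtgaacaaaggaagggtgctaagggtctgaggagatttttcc
Spata3: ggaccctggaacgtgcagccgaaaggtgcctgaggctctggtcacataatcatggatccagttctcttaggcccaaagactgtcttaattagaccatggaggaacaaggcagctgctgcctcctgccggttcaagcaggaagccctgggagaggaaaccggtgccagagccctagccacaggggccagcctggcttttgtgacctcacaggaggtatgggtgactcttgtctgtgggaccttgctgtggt
Tex9: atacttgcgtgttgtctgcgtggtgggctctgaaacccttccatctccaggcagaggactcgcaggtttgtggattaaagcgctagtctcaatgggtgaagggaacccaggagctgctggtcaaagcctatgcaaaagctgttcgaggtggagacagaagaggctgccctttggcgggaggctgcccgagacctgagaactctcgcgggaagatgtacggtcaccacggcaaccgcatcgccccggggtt
The Spata33 stretch is the richest of the 4 in G and C, at 74.0%, against 52.4% for Spata21, 57.2% for Spata3 and 58.0% for Tex9. The cyclic AMP response element TGACGTCA, the site of the spermatid factor CREM, and its core TGACG were searched on both strands, every full element also counting as a core. None of these 4 stretches holds either, so no letters are in capitals. Of the 38 member genes with an entry, 0 held the full element and 7 (18.4%) the core, against 1.55% and 17.8% of all 32851 promoters of that length. A member gene counted if any of its entries held the letters, while the share over all promoters is of single entries. The stretches shown are the first entry of each gene. The core was in 0 of the 12 genes with a probe that fell and in 5 of the 23 others tested. This says only that these letters are not in these windows.

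Among genes of the sperm head and acrosome, 3 of 11 probes fell and none rose, against 8.37% and 9.00% of all probes. Spata16 makes an acrosome protein whose loss gives round-headed sperm in humans. Its probe ILMN_3139235 was at 9.47, 10.51 and 10.52 in the controls and at 8.52, 8.82 and 8.63 at 10 µg/ml (-1.51 ± 0.41, adjusted p = 0.0112). Its controls were the most spread of the lower members, and without replicate 3 of them the adjusted p was 0.0547. Spata46, a nuclear envelope protein that shapes the sperm head in mice, fell by 0.68 ± 0.18 (adjusted p = 0.00977). Tex101, a germ cell surface protein that mouse sperm need to enter the oviduct, fell by 0.83 ± 0.25 (adjusted p = 0.0206). The call of Tex101 was lost without control replicate 1 (adjusted p = 0.0916), control replicate 2 (0.0654) or 10 µg/ml replicate 3 (0.138). Spata6, needed to join head and tail, stood at -0.71 ± 0.37 (adjusted p = 0.19), with groups that did not overlap. Spata20, a thioredoxin-like protein, stood at 0.05 and 0.09 by its 2 probes, Tex22 at -0.11, Spata32 at 0.14, Spata31d1a at -0.27 and Spata31d1d at 0.40, none of them called.

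Of 5 probes for genes of the sperm tail and its mitochondria, 2 fell, against 8.37% of all probes. Besides Spata33 this was Spata17, a calmodulin-binding protein, by its probe ILMN_1248007 (-0.54 ± 0.15, adjusted p = 0.0133). The other tested Spata17 probe, ILMN_2899488, stood at 0.13 ± 0.10 (adjusted p = 0.383). Spata19, a protein of the midpiece mitochondria, stood at -0.35 ± 0.17 (adjusted p = 0.155), with all treated arrays below all controls. Tex43, a sperm tail microtubule protein, stood at 0.04 ± 0.08.

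Of the 23 probes for testis genes with less settled roles, 6 fell and 1 rose, against 8.37% and 9.00% of all probes. Tex37, on chromosome 6, fell by 1.11 ± 0.29 (adjusted p = 0.0102), and its controls (12.05 to 12.35) lay well clear of the treated arrays (11.08 to 11.17). Tex47 fell by 0.83 ± 0.20 by probe ILMN_2911237 (adjusted p = 0.00521) and Tex21 by 0.67 ± 0.19 (adjusted p = 0.0153). The call of Tex21 was lost without control replicate 1 (adjusted p = 0.0738), control replicate 3 (0.0653) or 10 µg/ml replicate 3 (0.0721). Tex9, on chromosome 9, was at 10.30, 10.42 and 10.46 in the controls and at 10.78, 10.67 and 10.72 at 10 µg/ml (0.33 ± 0.09, adjusted p = 0.0127). It was the only member that rose, and without control replicate 1 its adjusted p was 0.0782. Tex35 stood at -1.20 ± 0.46 (adjusted p = 0.0654), a large difference that missed the threshold, and Spata4 at -0.57 ± 0.31. Spata9, Spata24, Tex13b, Tex16, Tex36 and Tex46 were not called either, and the values of this group's genes without any call otherwise ran from -0.31 (Tex24) to 0.26 (Tex13a).

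None of the 5 probes for genes of meiosis, germ cell bridges and transposon control was called. Tex11, an X-linked gene of meiotic crossing over, stood at -0.29 ± 0.14 (adjusted p = 0.135). Tex14, which keeps the bridges between germ cells open, stood at 0.22 ± 0.15, and Tex19.2 at 0.16 ± 0.28. Tex19.1, which holds transposons in check, and Spata22, a meiotic recombination protein, stood at -0.01 ± 0.10 and 0.01 ± 0.10. For Tex12, part of the synaptonemal complex, and Tex15, which acts in transposon silencing, the only probes were dim. Spata18 was not among the symbols matched.

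Of 12 probes for genes used in many tissues 1 fell, Tex2 by probe ILMN_1248072, which is near the 8.37% of all probes lower. Tex2, a lipid transfer protein of the endoplasmic reticulum on chromosome 11, was at 9.83, 9.80 and 9.85 in the controls and at 8.28, 8.46 and 8.41 at 10 µg/ml (-1.44 ± 0.34, adjusted p = 0.00518). Its other probe, ILMN_1222132, stood at 0.22 ± 0.11 (adjusted p = 0.18). Spata7, a protein of the photoreceptor cilium, stood at 0.64 ± 0.27 and 0.22 ± 0.23, and Spata2, a partner of the deubiquitinase CYLD, at 0.00 ± 0.06. Tex264, a receptor for the degradation of endoplasmic reticulum, Tex261 and Tex10 had 2 probes each, between -0.38 and 0.28, and none was called.

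Several falls were those of 1 probe of a gene whose other probes were not called. In a fit of the difference between each probe and the brightest probe of its gene, chosen after seeing the data, 5 of 14 member pairs differed in their response to 10 µg/ml at 6 months, against 22.7% of 3835 pairs over the array. The Tex2 probes differed by -1.66 ± 0.34 (adjusted p = 0.00102) and the Spata3 probe ILMN_1221195 from ILMN_2751239 by -1.68 ± 0.38 (adjusted p = 0.00255). The 3 other Spata3 probes stood at 0.51, 0.33 and -0.09, with none called. The Spata17 probes differed by -0.66 ± 0.17 (adjusted p = 0.00588), the Tex47 probes by -0.68 ± 0.23 (adjusted p = 0.0326) and the Spata7 probes by -0.42 ± 0.09 (adjusted p = 0.00157). For Spata16 the probe not called stood at -0.46 ± 0.24, and the difference from the called probe was 1.06 ± 0.41 (adjusted p = 0.0615). The files do not say which transcripts each probe reads, so of Tex2, Spata3, Spata17 and Tex47 the value is that of a probe and not of the gene. Spata33, Spata21, Tex48, Spata46, Tex37, Tex21, Tex101 and Tex9 had 1 probe each.

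**Figure D2:**
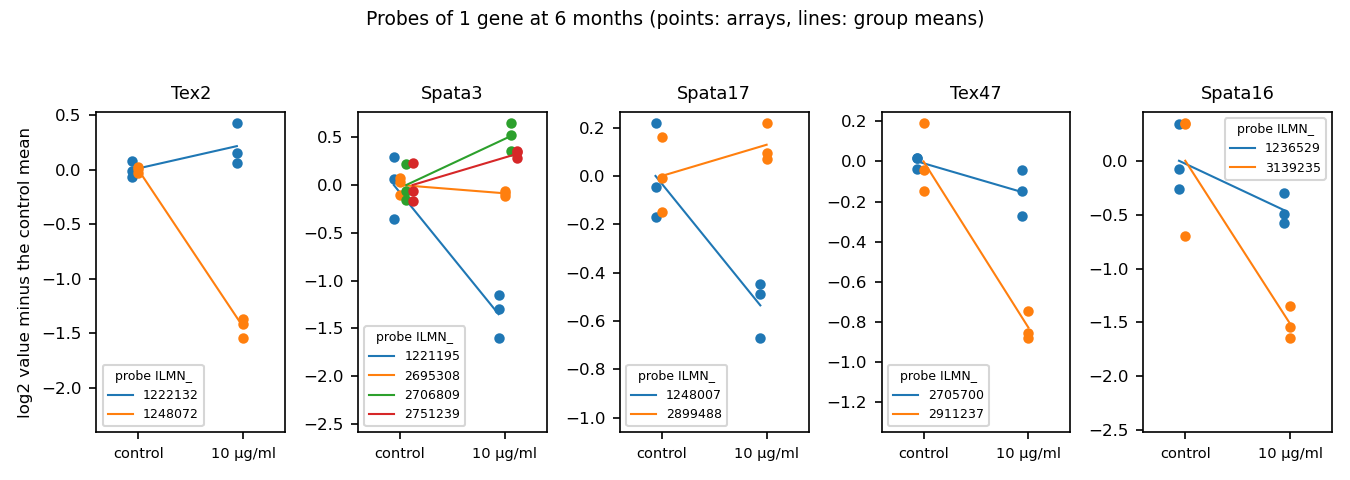
Values of each tested probe (log2, minus the mean of its 3 controls) in control and 10 µg/ml testes at 6 months for 5 genes with several probes; points are arrays, lines join group means and colours mark probes. In Tex2, Spata3 and Spata17 one probe fell while another stayed level or lay higher, and in Spata16 both lay lower.

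The lower doses at 6 months showed fewer calls. At 0.1 µg/ml, 4 member probes were lower and 0 higher (2.87% of all probes lower, 3.15% higher, 6.03% in all): Spata33 by -0.86 ± 0.17 (adjusted p = 0.00606), Tex48 by -0.50 ± 0.12 (0.0172), Tex47 by -0.70 ± 0.20 (0.0328) and Tex2 by -1.11 ± 0.34 (0.0486). Leaving out 1 array ended the call of Tex2 in 36 of 46 cases, that of Tex47 for each of the controls and of the 0.1 µg/ml arrays (adjusted p from 0.0528 to 0.143), and that of Tex48 without control replicate 1 (0.0609) or 3 (0.0638) or 0.1 µg/ml replicate 1 (0.0522) or 2 (0.0662). The count was 1 without control replicate 3 or 0.1 µg/ml replicate 2, 10 without 0.01 µg/ml replicate 1 and 19 without the array that stood apart. With the set as a term none was called, Tex2 and Tex47 turned to 0.34 and 0.14, and Spata33 and Tex48 stood at -0.11 and -0.08. That fit joins sets 3 and 4 only through the 0.01 µg/ml group. Replicate 1 is that group's only array in set 3, so these values rest on it. At 1 µg/ml none was called (0.311% of all probes; 13 members had an unadjusted p under 0.05), and the leading values were -1.29 ± 0.41 for Spata16, -1.07 ± 0.34 for Tex2 and -0.53 ± 0.17 for Spata33. With the set as a term, a fit that rests on the same replicate 1 of 0.01 µg/ml, Tex2 and Spata33 turned to 0.39 and 0.22. Without the array that stood apart 9 were called, and 4 without replicate 1 of 0.01 µg/ml. At 0.01 µg/ml none was called (0% of all probes; 5 members with an unadjusted p under 0.05), and 5 without replicate 1 of that dose. At 0.001 µg/ml none was called either (0% of all probes), and no member had an unadjusted p under 0.05. For these doses the share of all probes at that unadjusted limit is not given. Those counts are thus no result about the members alone.

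The slope over the dose rank, from 0 for control to 5 for 10 µg/ml, called 14 members lower and 2 higher at 6 months, against 12.7% and 13.8% of all probes (26.5% in either direction). Spata33 changed by -0.23 ± 0.03 per step (adjusted p = 1.01e-05), Spata21 by -0.24 ± 0.04, Tex48 by -0.12 ± 0.02, Spata16 by -0.34 ± 0.07 and Tex2 by -0.29 ± 0.06. Tex24 (-0.10 ± 0.03, adjusted p = 0.00967), Tex35 (-0.22 ± 0.08, adjusted p = 0.031) and, upwards, Tex13a (0.09 ± 0.02, adjusted p = 0.00318) were called here and not at 10 µg/ml alone. The call of Tex35 was lost without any 1 of the controls (0.0805, 0.0621 and 0.0555) or 10 µg/ml replicate 3 (0.0564), and that of Tex101 without the latter (0.0533). Without the array that stood apart 29 members were called.

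At 0.01 µg/ml and 6 months, the dose that lay in both set 3 and set 4, several members differed between the sets. Spata33 at 6 months was at 12.10 in replicate 1 of 0.01 µg/ml, which lay in set 3 with the controls, and at 11.39 and 11.31 in replicates 2 and 3, which lay in set 4. Spata21 went the same way, from 11.22 to 10.20 and 9.97, and so did Tex2 by its falling probe, from 10.15 to 8.72 and 8.67. Replicates 2 and 3 both lay below replicate 1 in 29 of the 56 members, against 33.6% of all probes. They did so in 11 of the 12 members lower at 10 µg/ml, Spata16 being the exception. Those 12 were picked from these data as lower than the controls of set 3, where replicate 1 also lay. The share over all probes picked that way is not given, so 11 of 12 is no result about the members alone. From 0.1 µg/ml (11.05, 11.20 and 11.38) to 1 µg/ml (11.63, 11.60 and 11.40), both in set 4, Spata33 did not go down further. The median intensity before normalization was 155 to 167 in the 6-month controls, 109 to 127 at 0.1 µg/ml, 108 to 117 at 1 µg/ml and 131 to 154 at 10 µg/ml, and its part in these differences was not tested.

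Set 5 held the 3 arrays of 10 µg/ml at 6 months and 5 arrays of 12 months, which were 2 controls, 2 at 0.001 µg/ml and 1 at 0.01 µg/ml. For 11 of the 12 members lower at 10 µg/ml the 2 kinds of array overlapped. Spata33 ran from 10.63 to 10.97 in the first and from 10.72 to 11.01 in the second, and Spata21 from 9.59 to 9.87 and from 9.47 to 9.90. Tex37 was the exception, at 11.08 to 11.17 against 11.28 to 11.56. Over all probes 4.39% did not overlap, and 5 of the 56 members (8.93%). These arrays differ in age and time of exposure as well as in dose.

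**Figure D3:**
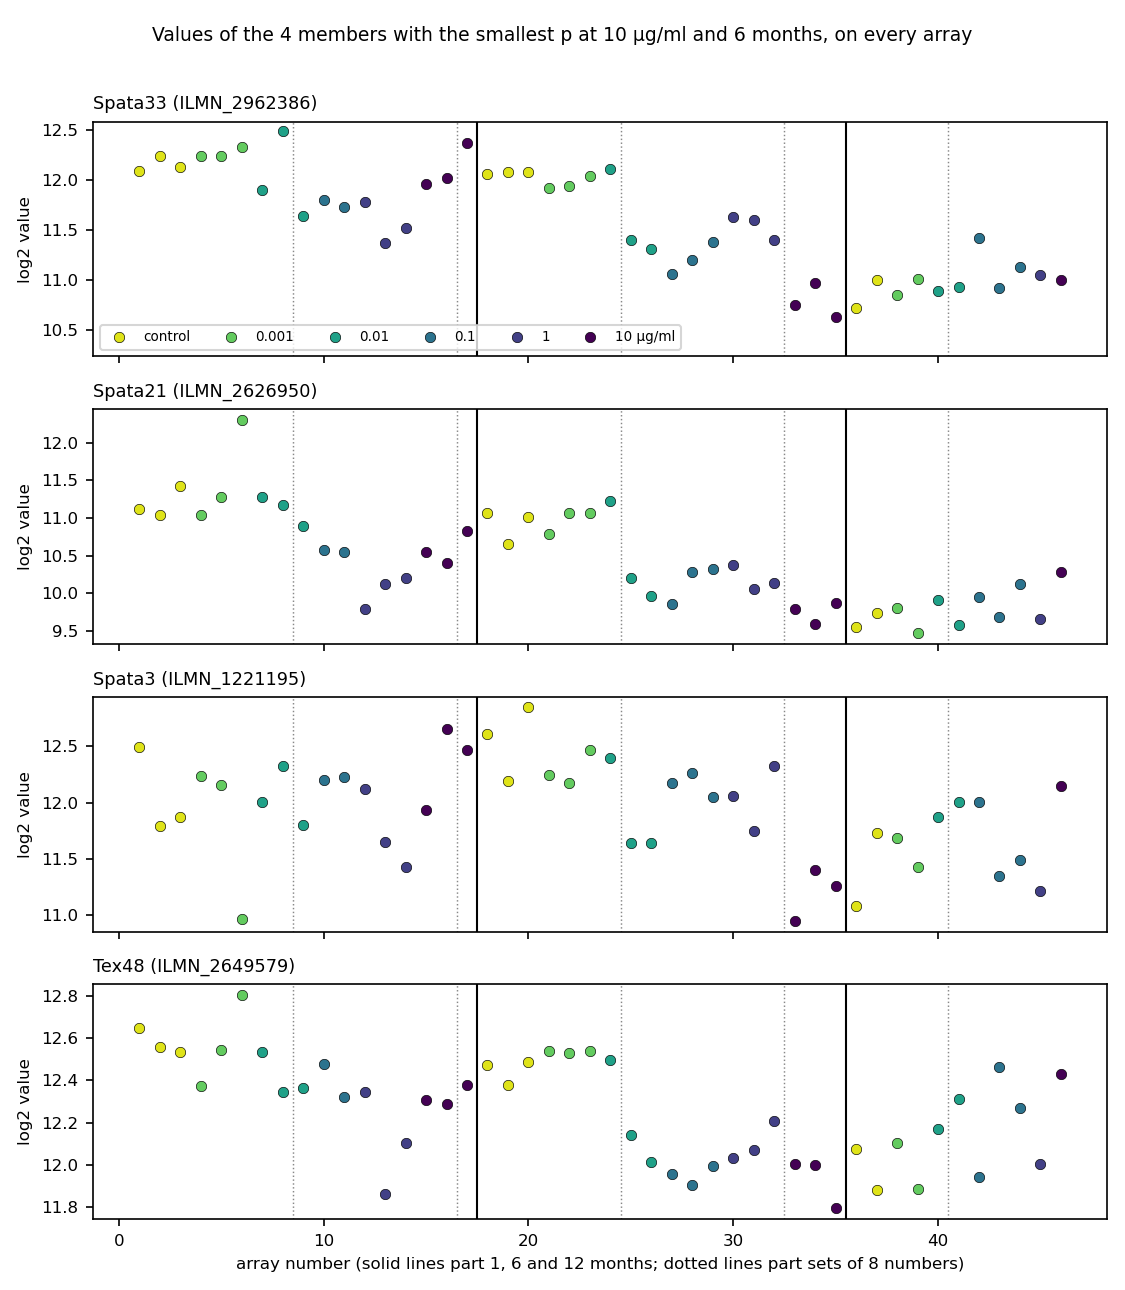
Log2 value on each of the 46 arrays (x axis, array number) for Spata33, Spata21, Spata3 (ILMN_1221195) and Tex48, coloured by dose; solid lines part the times and dotted lines the sets. In Spata33 the step from 12.10 to 11.39 falls between replicates 1 and 2 of 0.01 µg/ml at 6 months, at a set border, and the 10 µg/ml arrays of 6 months lie level with the 12-month arrays beside them.

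Marker genes of germ and somatic cells also moved at 10 µg/ml and 6 months. Genes of elongating spermatids had a median difference of -0.37, with 9 of 19 called lower and 1 higher, and their mean level went from 12.87 to 12.92 (control arrays) down to 12.38 to 12.46 (treated arrays). Of 22 round spermatid genes 6 fell and 2 rose (median -0.04), and of 17 spermatocyte genes 4 fell and 2 rose (median 0.01). Of 20 Sertoli cell genes 6 rose and 1 fell (median 0.22, mean level 9.70 to 9.78 and 9.90 to 10.03), and of 6 myoid and smooth muscle genes 2 rose. Of 11 Leydig cell genes 0 were called. Of 10 spermatogonial genes 1 rose and 1 fell (median 0.05), and of 7 endothelial genes 1 rose (median 0.12). Of 10 macrophage genes 0 were called (median 0.14), as of 4 epididymis, 3 adipose and 3 blood cell genes. Over all probes 8.37% were lower and 9.00% higher in this comparison, and some of these counts lie near those shares. The part of these shifts in the members' values was not tested.

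After 1 month few members were called at a single dose, while 9 were called in the slope over dose. At 10 µg/ml 1 member was called, higher, against 0.0454% of all probes higher and 0.0259% lower (0.0713% in all): Tex43, by 0.40 ± 0.08 (adjusted p = 0.0476). At 1 µg/ml 1 was higher and 1 lower (0.0713% of all probes higher, 0.227% lower, 0.298% in all), Tex43 at 0.36 ± 0.08 (adjusted p = 0.0452) and Spata21 at -1.16 ± 0.25 (adjusted p = 0.0373). Tex43 was at 12.53, 12.42 and 12.46 in the controls, at 12.86, 12.93 and 12.71 at 1 µg/ml and at 13.00, 12.82 and 12.78 at 10 µg/ml. The 3 arrays at 0.001 µg/ml were as high, at 12.83, 12.80 and 12.94, while those at 0.01 µg/ml, at 12.56, 12.48 and 12.78, overlapped with the controls. Leaving out 1 array ended the call of Tex43 at 10 µg/ml in 35 of 46 cases, with adjusted p from 0.0147 to 0.301, and at 1 µg/ml in 18 of 46 (0.0112 to 0.289). Leaving out any control of 1 month or any array at 1 µg/ml ended that of Spata21, with adjusted p of 0.103, 0.0785 and 0.213 for the controls and 0.0897, 0.131 and 0.0732 for the others. At 1 µg/ml 7 members were called without the array that stood apart, and 2 at 10 µg/ml. With the set as a term none was called at either dose, and Tex43 stood at 0.18 at 10 µg/ml. That fit joins sets 1 and 2 only through the 0.01 µg/ml group, of which replicate 3 alone lay in set 2.

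Spata21 had the steepest fall with dose at 1 month, -0.23 ± 0.04 per step (adjusted p = 0.00258). It was at 11.13, 11.04 and 11.43 in the controls, at 10.57 and 10.54 at 0.1 µg/ml, at 9.79, 10.12 and 10.20 at 1 µg/ml and at 10.55, 10.40 and 10.82 at 10 µg/ml. The lowest group was thus 1 µg/ml and not the highest dose. In all, 7 members rose and 2 fell with dose at 1 month, against 2.64% and 2.62% of all probes (5.26% in either direction). Spata4 rose by 0.21 ± 0.05, Tex261 by 0.08, Tex13a by 0.08, Tex2 by probe ILMN_1222132 by 0.06, Tex43 by 0.06 and Spata24 by 0.06 with each of 2 probes, and Tex48 fell by 0.08. The count was 4 without 1 µg/ml replicate 2 and 5 without its replicate 3 or 10 µg/ml replicate 2. With the set as a term, where replicate 3 of 0.01 µg/ml again joins the sets, none was called, and Spata21 stood at -0.17 (adjusted p = 0.984).

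At the 3 other doses of 1 month no member was called (0.00649% of all probes at 0.1 µg/ml and 0% at 0.01 and 0.001 µg/ml, with 5, 1 and 18 members at an unadjusted p under 0.05). The share of all probes at that unadjusted limit is not given here, so 18 is no result about the members alone. At 0.001 µg/ml the count rose to 20 without replicate 1 and to 24 without replicate 2 of that group, which leaves the array that stood apart with 1 other.

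After 12 months limma called no member at any dose or in the slope. Of all probes 0.0195% were called at 10 µg/ml, 0.0324% at 1, 0.0389% at 0.1, 0.0130% at 0.01 and 0% at 0.001 µg/ml, with 5, 5, 2, 4 and 2 members at an unadjusted p under 0.05. In the slope 0.0195% of all probes were called, and 6 members had an unadjusted p under 0.05. The shares of all probes at that unadjusted limit are not given, so these counts are no result about the members alone. The single array at 10 µg/ml limits this comparison, and it was assumed to vary like the others. The smallest p there were those of Tex47 (probe ILMN_2911237, 0.80 ± 0.30, adjusted p = 0.337), Tex22 (0.41 ± 0.15, adjusted p = 0.344) and Tex48 (0.46 ± 0.18, adjusted p = 0.378). Among the slopes they were Tex22 (0.09 ± 0.02, adjusted p = 0.133), Spata7 (0.16 ± 0.06, adjusted p = 0.25) and Tex47 (0.12 ± 0.05, adjusted p = 0.323). Differences at 10 µg/ml were above 0 in 46 of the 56 members (median 0.15), against 7879 of all 15419 probes (median 0.0034). Against the same 2 controls they were above 0 in 32 members at 1 µg/ml, 40 at 0.1, 42 at 0.01 and 33 at 0.001 µg/ml. The counts over all probes at these lower doses are not given here.

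The slopes differed between times. From 6 to 12 months the slope became more positive in 12 members and more negative in 1, against 8.73% and 10.0% of all probes (18.8% in either direction). Spata33 shifted by 0.28 ± 0.05, Tex48 by 0.19 ± 0.04, Spata21 by 0.34 ± 0.07 and Spata16 by 0.42 ± 0.12, while Tex13a shifted by -0.13 ± 0.04. Each of these 5 had slopes of opposite sign at the 2 times. The count of 13 was 26 without the array that stood apart. From 1 to 6 months 10 members shifted down and 2 up, against 6.72% and 4.43% of all probes (11.1% in either direction), with Spata4 at -0.31 ± 0.07 and Tex2 by probe ILMN_1248072 at -0.29 ± 0.08. The other Tex2 probe stood at -0.02 ± 0.03. Spata17 was called down by ILMN_1248007 (-0.13 ± 0.04) and up by ILMN_2899488 (0.07 ± 0.02). This count of 12 was 20 without the array that stood apart, and 1 with that array left out and set as a random block. From 1 to 12 months 3 shifted up, Spata21 by 0.33 ± 0.07, Tex48 by 0.15 ± 0.04 and Tex22 by 0.11 ± 0.03, against 1.78% of all probes up and 3.88% in either direction. Without the only array of 10 µg/ml at 12 months none of these last 3 was called, and without the array that stood apart 6 were, or 0 with set as a random block besides. The call of Tex48 was also lost without replicate 2 of the 12-month controls (0.0604), and that of Spata16 from 6 to 12 months without replicate 1 (0.121) or 2 (0.0921) of them. The mean of the 3 slopes was called upwards in 3 members and downwards in 6 (4.61% and 4.40% of all probes, 9.01% in all), led by Spata21 at -0.17 ± 0.03 and Spata33 at -0.11 ± 0.02. This count of 9 was 17 without the array that stood apart, and 4 with that array left out and set as a random block.

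**Figure D4:**
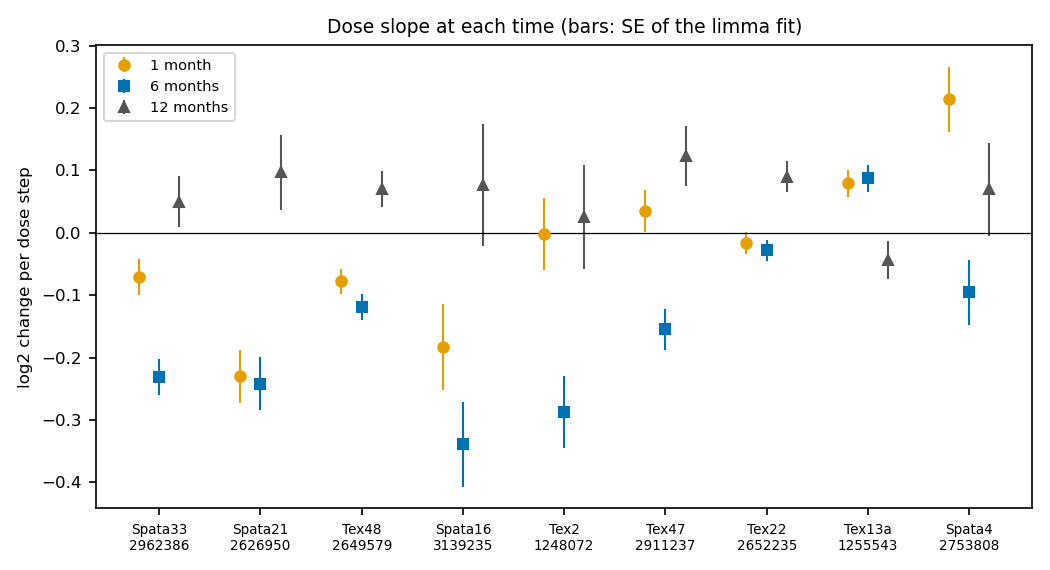
Slope over the dose rank (log2 per dose step, bars for its standard error) at 1, 6 and 12 months for 9 members. Spata33, Spata21, Tex48, Spata16 and Tex47 lie below 0 at 6 months and above it at 12 months, and Spata4 lies highest at 1 month, at 0.21.

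Across times, averaged over the 6 doses, age, length of exposure and array number move together and cannot be told apart. At 6 against 1 month 5 members were higher and 8 lower (9.38% and 7.91% of all probes, 17.3% in either direction). Spata33 had a lowest, median and highest value of 11.37, 12.02 and 12.49 over the 17 arrays of 1 month, 10.63, 11.50 and 12.10 over the 18 of 6 months and 10.72, 11.00 and 11.42 over the 11 of 12 months. It fell by 0.45 ± 0.07 from 1 to 6 months (limma adjusted p = 0.000247), with overlapping ranges, and by 0.99 ± 0.09 from 1 to 12 months (adjusted p = 8.56e-09), where only the highest 12-month array reached the lowest 1-month array. Spata17 by probe ILMN_1248007 had values of 8.56, 8.85 and 9.60 at 1 month, 8.17, 8.45 and 9.06 at 6 months and 8.22, 8.33 and 8.69 at 12 months. It fell by 0.32 ± 0.06 from 1 to 6 months (adjusted p = 0.00115), and its ranges overlapped at all times. Spata24, by probe ILMN_3030392, went the other way, at 12.19, 12.42 and 12.63 at 1 month, 12.40, 12.56 and 12.79 at 6 months and 12.42, 12.56 and 12.79 at 12 months. Its rise from 1 to 6 months was 0.16 ± 0.03 (adjusted p = 0.00286).

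The other members lower at 6 than at 1 month were Spata16 (-0.68 ± 0.17), Spata21 (-0.43 ± 0.10), Tex47 (-0.32 ± 0.08), Spata46 (-0.31 ± 0.07), Tex21 (-0.28 ± 0.08) and Tex48 (-0.20 ± 0.05). The other higher probes were those of Tex13a (0.20), Tex2 (ILMN_1222132, 0.19), Spata32 (0.17) and Spata24 (ILMN_2427869, 0.14). Spata16 by its other probe stood at -0.16 ± 0.10. The fall of Tex47 was that of ILMN_2911237, and the other Tex47 probe stood at 0.12 ± 0.12. The other tested Spata17 probe stood at -0.01 ± 0.04 and Tex2 by probe ILMN_1248072 at -0.35 ± 0.14, and none of these other probes was called. Leaving out 1 array ended the call of Spata32 in 18 of 46 cases and of that Spata24 probe in 4. Tex11, Tex14, Tex19.1, Tex101, Spata6, Spata19, Spata20 and Spata22 were not called, at values from -0.25 (Tex101) to 0.08 (Tex14). Without the array that stood apart, Spata6 was at -0.21 (adjusted p = 0.00483) in place of -0.06 ± 0.16. In that setting 25 members were called, and with set as a random block and that array left out 5.

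At 12 against 1 month 9 members were higher and 16 lower (22.9% and 18.3% of all probes, 41.2% in either direction). The largest falls were those of Spata21 (-1.03 ± 0.12), Spata33 (-0.99 ± 0.09), Tex2 by probe ILMN_1248072 (-0.72 ± 0.17), Tex37 (-0.57 ± 0.15), Tex101 (-0.55 ± 0.12), Tex47 (-0.51 ± 0.10), Spata46 (-0.51 ± 0.09), Spata17 (-0.48 ± 0.07), Tex21 (-0.43 ± 0.09) and Spata3 by probe ILMN_1221195 (-0.38 ± 0.14). The call of that Spata3 probe was lost without replicate 1 of the 12-month controls (adjusted p = 0.0644). The rises were those of Tex2 by probe ILMN_1222132 (0.33 ± 0.06), Spata32 (0.33 ± 0.07), Spata3 by probe ILMN_2751239 (0.32 ± 0.09), Tex13a (0.31 ± 0.06), Tex14 (0.20 ± 0.08), Tex9 (0.15 ± 0.05) and Spata24 by 3 probes (0.23, 0.14 and 0.13). Tex2 and Spata3 thus each had a probe that fell and 1 that rose, and a further Spata3 probe, ILMN_2695308, fell (-0.20 ± 0.05). The falling and rising probes named above differed by -1.06 ± 0.17 for Tex2 (adjusted p = 8.54e-06) and -0.71 ± 0.19 for Spata3 (adjusted p = 0.00326). The falls of Tex47 and Spata17 were those of ILMN_2911237 and ILMN_1248007. Their other tested probes stood at 0.32 ± 0.15 and 0.10 ± 0.05, not called. These pairs differed by -0.84 ± 0.11 for Tex47 (adjusted p = 9.26e-07) and -0.59 ± 0.09 for Spata17 (adjusted p = 2.32e-06). Of all probe pairs 47.1% differed.

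Tex11 was lower at 12 than at 1 month, by -0.18 ± 0.07 (adjusted p = 0.0356), a call that 8 of 46 arrays ended when left out, as 10 did for Tex14. Spata16 was lower by probe ILMN_1236529 (-0.35 ± 0.12, adjusted p = 0.0205). Its probe ILMN_3139235 stood at -0.39 ± 0.20, Spata6 at -0.41 ± 0.19, Spata20 at 0.12 and 0.19, Spata19 at -0.09, Spata22 at -0.03 and Tex19.1 at -0.01, none of them called. At 12 against 6 months 2 members were lower, Spata33 (-0.55 ± 0.08, adjusted p = 0.000374) and Spata21 (-0.59 ± 0.12, adjusted p = 0.00348), and Tex9 was higher (0.15 ± 0.04, adjusted p = 0.0368), against 4.24% and 5.25% of all probes (9.49% in either direction). Without the array that stood apart 15 were called. Without the only array of 10 µg/ml at 12 months 12 were called, but there the 10 µg/ml arrays of 6 months drop out too. That count is thus of a comparison over fewer doses. Leaving out 1 array ended the call of Tex9 in 10 of 46 cases.

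The 7 dim probes, left out of all counts above, were the only probes of Spata1, Spata5, Tex12 and Tex15 and further probes of Spata2, Spata17 and Tex13b. In a fit without the filter 1 of their 175 comparisons was called, Tex13b by probe ILMN_2850784 at 12 against 1 month (adjusted p = 0.000194), and all 175 lay between -0.10 and 0.10.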

How the data were processed

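RNA of mouse testes was measured on 46 Illumina bead arrays as biotin-labelled cRNA, and arrays were grouped by the dose and time in their titles. The authors deposited normalized values on the log2 scale, made with lumi per the submitters' processing notes. Its version is not given in the sources used here, nor are its settings. The authors also deposited non-normalized intensity values on a linear scale, of which 45 columns were used and the column named 1 was left out because that name is also a column number. In 33 of them the values stand in another order than the probe names. The order was restored by ranks for alternatives only (25692 probes matched within 0.001, 5 not).

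Probe symbols came from the platform annotation. The dimmest 40% of probes by mean (under 7.76) were left out. The others were fitted with limma (version 3.58.1, R version 4.3.3). The model had 18 group means and a spread pooled over all arrays. P-values were adjusted by the method of Benjamini and Hochberg and the threshold was 0.05. There were 25 contrasts: each dose against control, slopes over dose rank, their mean (weighted by inverse variance) and differences, and times averaged over doses. Where a group had 1 array, it was assumed to vary like the others. The fit was tested on simulated data with independent noise. These held no differences between sets and no array that stood apart, so that test bears on neither. The number of arrays limits precision. Median intensity ran from 108 to 222.

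The members, roles and marker lists were chosen with earlier results of these data known. Members named are, past the threshold, the 10 with the largest rise and 10 with the largest fall (4 and 4 at other doses), or the 3 with the smallest p where none passed, other probes of the same gene, and well-studied members. Same-numbered replicates did not deviate together: the mean correlation of deviations was 0.006 over 306 pairs of equal number and -0.003 over 600 other pairs, so the numbers do not pair samples. Alternatives were other filters, 2 normalizations of the intensities (with and without a normexp background correction, offset 50), set as a fixed term or random block, replicate number as a block, arrays of the times compared only, and each array left out. Leaving out the only array of a group took that dose out of the time comparisons at both times and out of that time's slope.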

Additional observations from a re-analysis of the deposited data

Results flagged for a closer look

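Slopes over the dose rank differed between times in a test of the difference itself (limma). Of the 12 (6 and 1 month), 3 (12 and 1) and 13 (12 and 6) differences called among the members, up to the 4 largest in each direction are given here, 14 in all. Between 1 and 6 months the slope (log2 per dose step) shifted by 0.0710 in Spata17 (ILMN_2899488) and 0.0702 in Tex9, and by -0.31 in Spata4, -0.29 in Tex2 (ILMN_1248072), -0.25 in Spata3 (ILMN_1221195) and -0.19 in Tex47 (ILMN_2911237). The other tested Spata17 probe, ILMN_1248007, was called the other way, at -0.13 ± 0.04 (limma adjusted p = 0.02). The other Spata3 probes shifted by 0.12, 0.04 and 0.02, that of Tex2 by -0.02 and that of Tex47 by -0.11, none of them called. Between 1 and 12 months it shifted by 0.33 in Spata21, 0.15 in Tex48 and 0.11 in Tex22. Between 6 and 12 months it shifted by 0.42 in Spata16 (ILMN_3139235), 0.34 in Spata21, 0.31 in Tex2 (ILMN_1248072), 0.28 in Spata33 and -0.13 in Tex13a. The other probes of Spata16 and Tex2 shifted by 0.15 and -0.08 there, not called. The set of the control arrays differs between the times, being set 1 at 1 month, set 3 at 6 months and set 5 at 12 months, and its part in these shifts was not tested. Replicate groups of 4 or more arrays, in which a lone outlying array could be looked for, did not occur.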

How the results depend on the processing

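Counts are of member probes called, without the share of all probes called in the same setting. In the comparison of 10 µg/ml with control at 6 months the count of 13 stayed between 13 and 14 with no filter, with the dimmest 60% left out, from the intensities with or without background correction, with set as a random block (consensus correlation -0.0024; 0.172 without the array that stood apart) and with the replicate block. It was 22 with arrays of the times compared only, a setting that gave 12 at 0.1 µg/ml and 26 for the slope at 6 months, 24 for the slope difference of 12 and 6 months, 12 for 12 against 6 months, and 1 each for 10 µg/ml and slope at 12 months and for the slope difference of 12 and 1 month. It gave 0 for 10 µg/ml, 1 µg/ml and slope at 1 month. Counts for 10 and 1 µg/ml at 1 month were 0 with no filter and from the intensities by both routes, and the slope at 1 month was 4 with normexp. With the dimmest 60% left out the count at 0.1 µg/ml and 6 months was 7. With set as a fixed term it was 0 there, in the slope at 1 month, at 10 and 1 µg/ml and 1 month and in the slope difference of 12 and 1 month, and without the array that stood apart (a setting chosen after seeing the data) in the same comparisons except 10 µg/ml at 1 month. With set as a random block and that array left out, the counts were 0 in those same comparisons, 4 for the mean slope, 1 for the slope difference of 6 and 1 month and 5 for 6 against 1 month. The cause was not tested.

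With set as a fixed term, with or without that array, values turned to 0.39 (Tex2) and 0.22 (Spata33) at 1 µg/ml, 0.34 (Tex2) and 0.14 (Tex47) at 0.1 µg/ml and 0.0322 (Spata33) and 0.0569 (Tex47) at 0.01 µg/ml, all at 6 months. These values rest on replicate 1 of 0.01 µg/ml, the only array of that group in set 3. With the array that stood apart kept, the slope of Spata24 (ILMN_2427869) at 1 month turned to -0.0027. Spata19 at 6 against 1 month turned to -0.0776 with the random block and the array that stood apart left out. With the replicate block the count at 12 against 6 months was 5, Tex19.1 there turned to -0.0043, and no other count moved by over 1.5 times. Effects of 10 µg/ml and slope at 6 months and of the times could not be estimated with set as a fixed term.

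Leaving out each array in turn gave counts of 0 to 2 at 10 µg/ml, 0 to 7 at 1 µg/ml, 0 to 24 at 0.001 µg/ml and 4 to 11 for the slope at 1 month. At 6 months they were 9 to 24 at 10 µg/ml, 0 to 9 at 1 µg/ml, 1 to 19 at 0.1 µg/ml, 0 to 5 at 0.01 µg/ml and 14 to 29 for the slope. The mean slope gave 7 to 17, the slope differences 8 to 20 (6 and 1 month), 0 to 6 (12 and 1) and 9 to 26 (12 and 6), and the times 11 to 25 (6 against 1 month), 23 to 37 (12 against 1) and 2 to 15 (12 against 6). These values changed sign: Spata19 (-0.0671 to 0.0387) and Spata6 (-0.2145 to 0.0266) at 6 against 1 month, Spata22 (-0.0299 to 0.0656) and Tex19.1 (-0.1204 to 0.0965) at 10 µg/ml and 6 months, and Tex19.1 at 12 against 1 month (-0.0453 to 0.0101) and 12 against 6 months (-0.0307 to 0.0579).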
